A study of Mus musculus with 6 samples.

Results

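The Oas and Oas-like genes are 6 of the 12969 genes in an RPKM table of infarcted mouse heart. They were picked by gene symbol, as the rows named Oas1a, Oas1g, Oas2, Oas3, Oasl1 and Oasl2, and all 6 were found. RPKM is a read count divided by gene length and by library depth, so levels can be set side by side between genes. The 6 libraries came from male mice about 12 weeks old whose left anterior descending coronary artery had been permanently ligated, with the infarct taken 4 days later. Irf3KO stands for 3 libraries from IRF3-/- mice, whose strain no source used here gives, and WT for 3 libraries from C57BL/6 wild-type mice. No library from an uninjured or sham-operated heart was analysed here.

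Oligoadenylate synthetases are interferon-induced enzymes that sense double-stranded RNA in the cytosol. Once bound to it they join ATP into short chains with 2'-5' linkages, called 2-5A, a second messenger that leads to the breakdown of cellular and viral RNA. The Oas-like proteins share the synthetase fold and carry ubiquitin-like domains. IRF3 is a transcription factor that, once activated downstream of nucleic acid sensors, turns on interferon beta and a set of antiviral genes. The comparison asks how the family's transcript levels in the infarct differ with and without Irf3.

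DNA sequence at the starts of these genes is shown first because the family was low as a group. The windows cover 250 bases before and 50 bases after the annotated start, are written 5' to 3' along the gene's own strand, and come from RefSeq on build GRCm38.p6, which is not the mm9 build named for the expression values. Of the 6 genes, 5 had a window in the table, and Oas2 had none. Capitals mark GAAA, any 2 bases and GAAA again, the core of the interferon-stimulated response element that interferon-activated transcription factors are known to bind, searched on both strands. The 3 genes that hold it and the gene with the highest level are printed. They are Oas3 (chr5:120777610-120777909, minus strand), Oas1a (chr5:120907476-120907775, minus strand), Oas1g (chr5:120887564-120887863, minus strand) and Oasl2 (chr5:114896684-114896983, plus strand).
Oas3: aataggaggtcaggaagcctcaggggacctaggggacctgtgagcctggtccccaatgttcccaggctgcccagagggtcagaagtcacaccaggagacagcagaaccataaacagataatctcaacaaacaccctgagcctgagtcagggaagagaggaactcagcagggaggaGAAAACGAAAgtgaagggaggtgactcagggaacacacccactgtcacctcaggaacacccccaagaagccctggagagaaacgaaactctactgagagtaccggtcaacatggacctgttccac
Oas1a: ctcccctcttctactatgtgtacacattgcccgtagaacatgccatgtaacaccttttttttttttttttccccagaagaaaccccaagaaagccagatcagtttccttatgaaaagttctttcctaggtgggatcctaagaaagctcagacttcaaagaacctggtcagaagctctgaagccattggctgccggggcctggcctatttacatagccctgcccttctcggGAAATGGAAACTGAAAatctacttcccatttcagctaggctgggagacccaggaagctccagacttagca
Oas1g: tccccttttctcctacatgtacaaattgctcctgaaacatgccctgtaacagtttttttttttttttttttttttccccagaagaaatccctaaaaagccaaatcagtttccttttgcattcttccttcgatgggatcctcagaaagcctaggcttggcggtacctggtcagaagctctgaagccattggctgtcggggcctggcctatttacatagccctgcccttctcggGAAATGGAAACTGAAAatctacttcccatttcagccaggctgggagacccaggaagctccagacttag
Oasl2: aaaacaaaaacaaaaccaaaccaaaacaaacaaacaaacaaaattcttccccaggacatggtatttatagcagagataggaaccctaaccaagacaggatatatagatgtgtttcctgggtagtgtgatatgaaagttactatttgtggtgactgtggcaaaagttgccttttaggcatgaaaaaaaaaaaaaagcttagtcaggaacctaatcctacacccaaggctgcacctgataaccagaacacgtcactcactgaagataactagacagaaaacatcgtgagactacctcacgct

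The Oas3 window held 1 match, GAAAACGAAA, at 75 to 66 bases before the start. Oas1a and Oas1g each held 2 overlapping matches, GAAATGGAAA and GAAACTGAAA, which together run as 1 block of capitals just before the start. The Oas1a and Oas1g windows are near copies of each other, with 261 identical bases over 306 aligned columns (85.3%). The windows of Oasl1 and Oasl2 held no match, which says only that these letters are not in this stretch. Over the whole RefSeq table, 1131 of 32851 windows (3.44%) held the core. Among listed genes with a window, it was in 7 of 15 other interferon-induced effectors and 2 of 12 interferon signalling genes. It was also in 5 of 10 RNA sensors and linked genes (Ddx58, Eif2ak2, Ifih1, Ifit1 and Ifit3). The gamma-activated site TTCNNNGAA, searched on both strands, was in the window of Oas1a alone among these 5 genes, against 2726 of 32851 windows (8.30%). A match is a run of letters and was not tested as a binding site.

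Reads were still assigned to the knocked-out gene. In Irf3KO replicates 1 to 3 its level was 7.40, 8.74 and 7.68 RPKM, against 13.76, 13.87 and 11.56 RPKM in WT replicates 1 to 3. The Irf3 groups did not overlap, with a log2 fold change of -0.65 ± 0.18 (SE) that did not pass the test over all genes (limma adjusted p = 0.344). No source used here names the deleted stretch, so the gene's level is a weak check of the labels. Depth, read from the steps between low values, was 14.8 to 61.8 M reads per library, with Irf3KO replicate 3 the deepest. Irf3KO replicate 2 stood apart from the other libraries (mean correlation 0.907, against 0.941 to 0.966), and log2 fold changes without it are given beside the family's. Cardiomyocyte markers summed to 12370 to 21024 RPKM in Irf3KO libraries and 6079 to 16358 RPKM in WT libraries, and fibroblast markers to 3862 to 5300 RPKM in Irf3KO and 6112 to 6921 RPKM in WT.

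The family was low in every knockout library. Of the 6 genes, 5 fell and none rose (limma on log2(RPKM + 1), adjusted p below 0.05 over 12913 tested genes), where 0.356% of all tested genes fell, 0.147% rose and 0.503% did either. Oas1a did not pass. For all 6 genes every Irf3KO library lay below every WT library, which was so for 11.8% of all tested genes, and 6.61% had every Irf3KO library above every WT library. The summed level of the 6 genes was 13.98, 10.25 and 17.92 RPKM in Irf3KO replicates 1 to 3, against 74.7, 57.53 and 62.72 RPKM in WT replicates 1 to 3, a 4.63-fold difference in means. The median log2 fold change of the 6 genes was -1.77, and that of all tested genes was -0.09. Taken gene by gene, an exact two-sided permutation test gave p = 0.1 for each of the 6, the smallest value that 3 against 3 libraries allow.

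The count of members called depended on single libraries, and so did the count over all tested genes. Without Irf3KO replicate 2 the same 5 genes passed and the family's median was -1.65, where 0.541% of all tested genes fell. Without WT replicate 3 none of the 6 passed (limma adjusted p = 0.081 to 0.286; all 6 had an unadjusted limma p below 0.05). Without WT replicate 1 only Oas3 passed, without WT replicate 2 only Oas3 and Oasl2, without Irf3KO replicate 3 only Oasl2, and without Irf3KO replicate 1 Oas1g and Oas1a did not. Over all tested genes 65 were called with all 6 libraries. That count was 29, 30 or 21 without WT replicate 1, 2 or 3, and 55, 97 or 26 without Irf3KO replicate 1, 2 or 3. The log2 fold changes of all 6 members stayed below 0 in these fits. They lay between -2.32 and -1.23 without WT replicate 3, and between -2.32 and -1.21 with all 6 libraries.

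**Figure D1:**
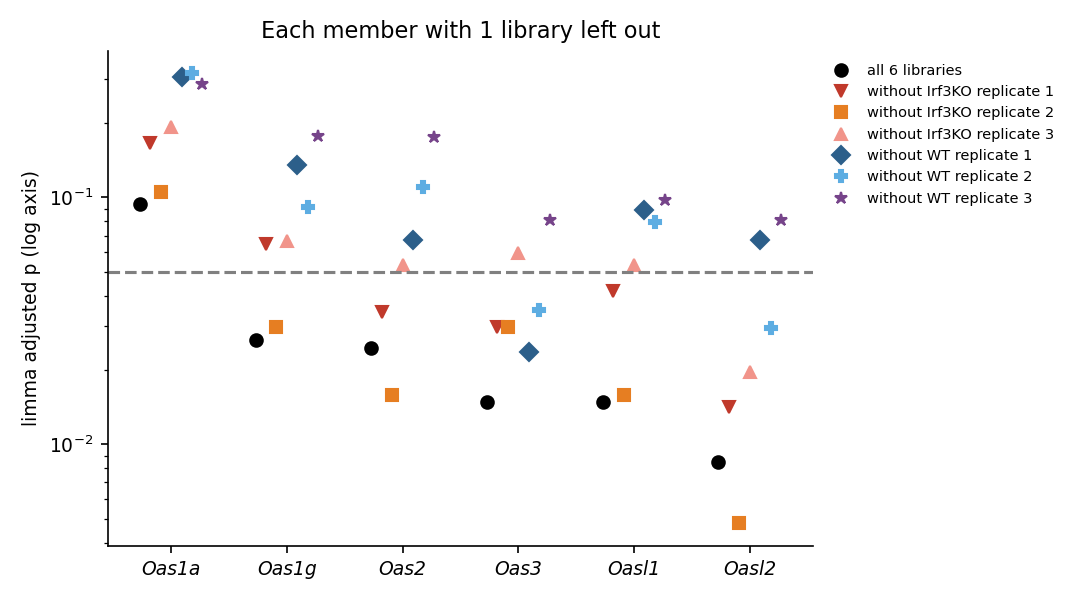
Limma adjusted p (log axis) of each gene with all 6 libraries and with each library left out in turn; the dashed line is 0.05. Leaving out WT replicate 3 puts all 6 genes above the line, and Oas1a is above it in every fit shown.

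**Figure D2:**
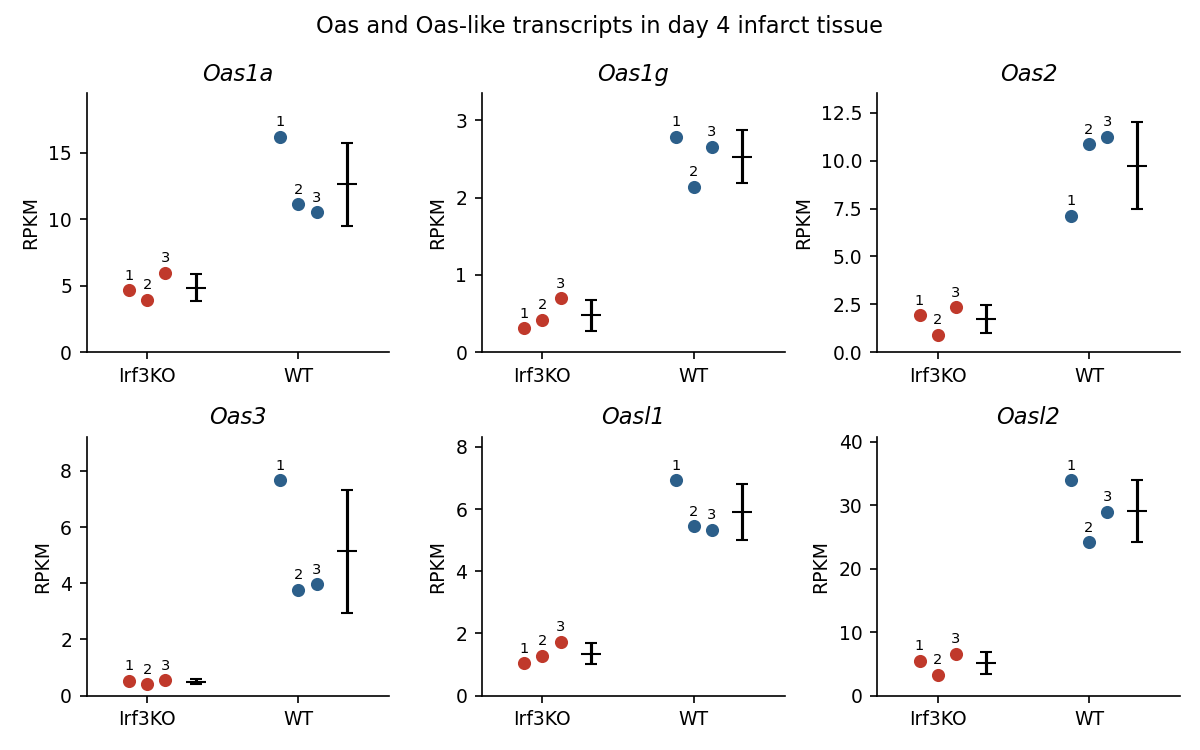
RPKM (y axis, linear, from 0) of each gene in Irf3KO (red) and WT (blue) libraries, numbered by replicate, with the group mean and SD as black bars. In each of the 6 panels the 3 Irf3KO points lie below the 3 WT points, and as a ratio the gap is widest for Oas3 (6.73-fold), with at most 0.56 RPKM in Irf3KO and at least 3.77 RPKM in WT.

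Oas3, the largest synthetase, which carries several repeats of the synthetase domain, showed the largest ratio. It stood at 0.53, 0.41 and 0.56 RPKM in Irf3KO libraries, against 7.67, 3.77 and 3.97 RPKM in WT libraries. The knockout values lay close together, whereas WT replicate 1 was about as far above the other WT libraries as these were above the knockout. Mean Oas3 was 0.500 ± 0.079 RPKM in Irf3KO and 5.14 ± 2.20 RPKM in WT (SD, n = 3 each), 10.3-fold lower in the knockout (limma adjusted p = 0.0148). These values rest on about 39 to 181 reads in Irf3KO and 326 to 757 reads in WT. The log2 fold change was -1.98 ± 0.25 (SE) with 1 RPKM added before the logarithm and -3.06 with 0.1 RPKM added, since the added value shrinks the change of genes with low levels. Without Irf3KO replicate 2 it was -1.93.

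Oas2, a synthetase with a duplicated synthetase domain, differed from the rest in which WT library was low. It stood at 1.94, 0.91 and 2.36 RPKM in Irf3KO libraries, against 7.12, 10.85 and 11.26 RPKM in WT libraries. WT replicate 1, the highest WT library for the other 5 genes, was the lowest for Oas2. The mean was 1.74 ± 0.75 RPKM in Irf3KO and 9.74 ± 2.28 RPKM in WT, 5.61-fold lower (log2 fold change -1.99 ± 0.27, limma adjusted p = 0.0245), and the log2 fold change was -1.75 without Irf3KO replicate 2.

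Oas1a and Oas1g encode small synthetases with a single domain, both enzymatically active. Oas1a stood at 4.67, 3.93 and 5.97 RPKM in Irf3KO libraries, against 16.2, 11.1 and 10.51 RPKM in WT libraries. The groups did not overlap, with 1.76-fold between the lowest WT and the highest Irf3KO library, the smallest such ratio of the 6 genes. Its mean was 4.86 ± 1.03 RPKM in Irf3KO and 12.6 ± 3.13 RPKM in WT, a 2.60-fold difference that did not pass over all genes (log2 fold change -1.21 ± 0.23, 95% interval -1.74 to -0.67, limma adjusted p = 0.0943). Leaving out Irf3KO replicate 2 gave -1.09.

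Oas1g stood at 0.31, 0.42 and 0.70 RPKM in Irf3KO libraries, against 2.79, 2.14 and 2.66 RPKM in WT libraries. It was the lowest member in WT hearts, and in Irf3KO replicates 1 and 2 it rested on about 11 and 18 reads. For replicate 1 an exact 95% Poisson interval was 0.155 to 0.557 RPKM, which covers counting error only and ends below every WT value. Its mean was 5.31-fold lower in the knockout (log2 fold change -1.26 ± 0.18, limma adjusted p = 0.0264; -2.24 with 0.1 RPKM added; -1.24 without Irf3KO replicate 2).

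The values of this pair share sequence. Of the 50-base windows in GENCODE M21 transcripts of Oas1a, 57.6% also occur in Oas1g transcripts, and 45.2% of those of Oas1g occur in Oas1a. At 100 bases the shares were 40.9% and 31.3%. The other 4 genes shared no such window with another of the 12 Oas and Oas-like genes of that annotation. No source used here gives the read length or the handling of reads that fit both genes, so the split between Oas1a and Oas1g is uncertain.

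The Oas-like genes lie apart from the Oas cluster on chromosome 5. Oasl2, which in the mouse keeps synthetase activity, was the most abundant member in WT hearts. It stood at 5.49, 3.29 and 6.60 RPKM in Irf3KO libraries, against 33.99, 24.23 and 28.98 RPKM in WT libraries. Even the lowest WT library was 3.67-fold above the highest Irf3KO library. Its mean was 5.13 ± 1.68 RPKM in Irf3KO and 29.1 ± 4.88 RPKM in WT, 5.67-fold lower (log2 fold change -2.32 ± 0.26, limma adjusted p = 0.00846), and -2.09 without Irf3KO replicate 2.

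Oasl1, which lacks synthetase activity and in the mouse represses translation of Irf7 mRNA, stood at 1.04, 1.29 and 1.73 RPKM in Irf3KO libraries, against 6.93, 5.44 and 5.34 RPKM in WT libraries. Its WT values were the tightest of the family relative to their mean apart from Oas1g. The mean was 1.35 ± 0.35 RPKM in Irf3KO and 5.90 ± 0.89 RPKM in WT, 4.36-fold lower (log2 fold change -1.56 ± 0.20, limma adjusted p = 0.0148), with -1.54 when Irf3KO replicate 2 was left out. Irf7, the interferon-amplifying factor whose translation Oasl1 represses, fell as well, with 4.79, 4.83 and 6.25 RPKM in Irf3KO libraries and 40.56, 24.43 and 32.68 RPKM in WT libraries (limma adjusted p = 0.00367).

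Within the knockout group the members kept a partly shared order of libraries. Irf3KO replicate 3 was the highest knockout library for all 6 genes. Irf3KO replicate 2 was the lowest for Oas1a, Oas2, Oas3 and Oasl2, and Irf3KO replicate 1 for Oas1g and Oasl1. Libraries of a group are few, and no test was made of this order.

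The order of mean levels was the same in both groups. In Irf3KO hearts it ran Oasl2, Oas1a, Oas2, Oasl1, Oas3 and Oas1g, and so it did in WT hearts. In Irf3KO libraries the ranges of Oasl2 and Oas1a, of Oas2 and Oasl1, and of Oas3 and Oas1g overlapped, so these neighbours did not differ beyond their spread. In WT libraries the range of Oasl2 lay above that of Oas1a, and the ranges of Oas1a and Oas2 and of Oasl1 and Oas3 overlapped.

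For 3 genes the share of the summed signal did not overlap between the groups. Oas1a gave 33.3% to 38.3% of the summed RPKM in Irf3KO libraries and 16.8% to 21.7% in WT libraries. Oas3 gave 3.13% to 4.00% in Irf3KO and 6.33% to 10.3% in WT, and Oasl2 32.1% to 39.3% in Irf3KO and 42.1% to 46.2% in WT. Each of these gave an exact permutation p of 0.1, the smallest possible. The shares of Oas1g, Oas2 and Oasl1 overlapped between the groups (exact permutation p = 0.8, 0.3 and 0.7).

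**Figure D3:**
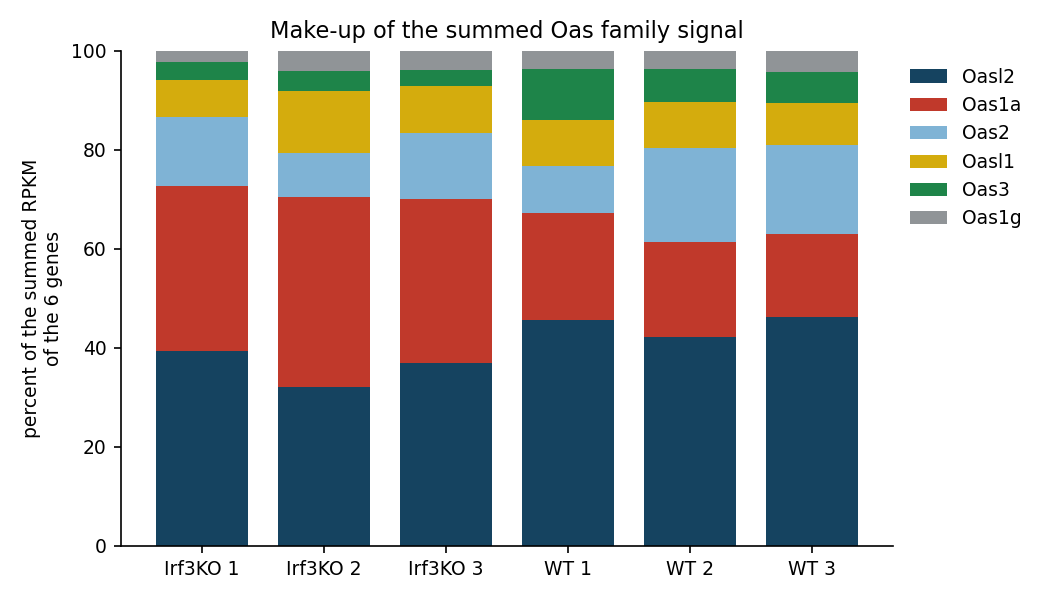
Share of each gene (percent of the summed RPKM of the 6 genes, y axis from 0 to 100) in each Irf3KO and WT library. The red Oas1a segment spans 33.3% to 38.3% in Irf3KO and 16.8% to 21.7% in WT, and the green Oas3 segment is at most 4.00% in Irf3KO and at least 6.33% in WT.

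Ratios between members within a library do not depend on how libraries were scaled to each other. The ratio of Oas3 to Oas1a was 0.113, 0.104 and 0.0938 in Irf3KO libraries, against 0.473, 0.340 and 0.378 in WT libraries, a difference of -1.92 in mean log2 ratio. The ratio of Oasl2 to Oas1a was 1.18, 0.837 and 1.11 in Irf3KO, against 2.10, 2.18 and 2.76 in WT, a difference of -1.18. Of the 15 pairs of members, 7 had ratios whose groups did not overlap, and 5 of these 7 held Oas1a. Each ratio was written so that its mean log2 was lower in Irf3KO, which made Oas1a the denominator in every pair that holds it. For a single pair, such a split has an exact permutation p of 0.1, the smallest possible. The pairs share genes, so they are not independent, and the split of reads between Oas1a and Oas1g is uncertain. After adjustment over the 15 pairs the smallest exact permutation p was 0.214, so no pair could pass in this design. The ratio of Oas2 to Oasl2 overlapped between the groups, at 0.353, 0.277 and 0.358 in Irf3KO against 0.209, 0.448 and 0.389 in WT (exact permutation p = 1), with a wider spread in WT.

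Other Oas genes in the table were Oas1b and Oas1c, which RefSeq places between Oas3 and Oas1g. Oas1b, which is truncated in C57BL/6 and most laboratory strains and is known as the flavivirus resistance gene, stood at 1.16, 0.30 and 1.35 RPKM in Irf3KO libraries, against 2.02, 4.20 and 3.89 RPKM in WT libraries. As with Oas2, WT replicate 1 was the lowest WT library. The groups did not overlap, and the gene did not pass (log2 fold change -1.18 ± 0.30, limma adjusted p = 0.262; -0.92 without Irf3KO replicate 2). Oas1c stood at 0.92, 0.37 and 1.03 RPKM in Irf3KO, against 1.44, 1.27 and 1.31 RPKM in WT (log2 fold change -0.42 ± 0.19, limma adjusted p = 0.556; -0.24 without Irf3KO replicate 2). Oas1d, Oas1e, Oas1f and Oas1h are not analysed here.

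None of the nearest measured genes outside the family passed the test, which 0.503% of all tested genes passed. Beside the Oas cluster, Tpcn1 and Ddx54 on one side had log2 fold changes of 0.32 ± 0.22 and 0.35 ± 0.26, and Ptpn11 and Rpl6 on the other -0.08 ± 0.23 and -0.15 ± 0.25. Sppl3, next to the Oasl cluster, averaged 11.7 ± 0.60 RPKM in Irf3KO and 10.7 ± 1.15 RPKM in WT. In all, 8 genes were read, 2 on each side of both clusters (limma adjusted p = 0.529 to 0.912; 1, the long noncoding 1500011B03Rik, had an unadjusted p below 0.05 and a value above 0). Gene order was taken from RefSeq on GRCm38.p6.

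Of 4 genes that bear on 2-5A or its action, none passed the test, which 0.503% of all tested genes passed (limma, with 1, Enpp1, at an unadjusted p below 0.05). Enpp1, a phosphodiesterase that can degrade 2-5A, had -0.69 ± 0.28, and -0.39 without Irf3KO replicate 2 (limma adjusted p = 0.556 with all libraries). Abce1, a ribosome recycling factor that also inhibits the 2-5A pathway, was at -0.27 ± 0.25, and the 2-5A phosphodiesterases Pde12 and Akap7 were at -0.18 ± 0.19 and -0.11 ± 0.21. Ilf2, which carries a nucleotidyltransferase-like fold, was at -0.48 ± 0.29 (limma adjusted p = 0.556), and Mb21d1, the DNA sensor cGAS, and Mb21d2 are not analysed here.

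**Figure D4:**
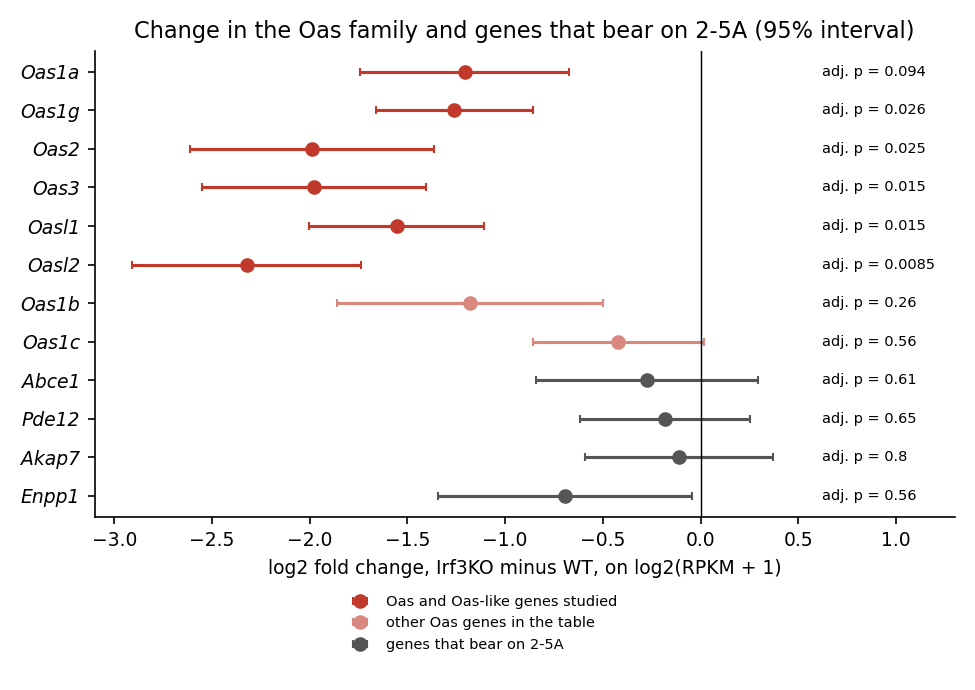
Log2 fold change, Irf3KO minus WT, on log2(RPKM + 1), with 95% intervals and adjusted p, for the 6 genes (red), other Oas genes (pale) and 4 genes that bear on 2-5A (grey). The 6 genes run between -2.32 and -1.21, whereas the 4 grey genes lie between -0.69 and -0.11.

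Some other RNA sensors and interferon genes fell too. Of 12 listed RNA sensors and linked genes 4 fell, Ifit1, Ifit2, Ifit3 and Zbp1, none rose, and the list's median was -1.20. Over all tested genes 0.356% fell and 0.147% rose, and 0.541% fell without Irf3KO replicate 2. These shares also stand beside the counts of the lists that follow. Ifih1, Ddx58, Dhx58, Eif2ak2 and Tlr3 did not pass with all 6 libraries (limma adjusted p = 0.0814 to 0.556). Without Irf3KO replicate 2, 6 of these 12 genes fell, with a median of -0.89. Zbp1, which senses Z-form nucleic acid, stood at 1.82 ± 0.39 RPKM in Irf3KO and 9.38 ± 2.24 RPKM in WT (limma adjusted p = 0.0132). Of 14 interferon signalling genes 2 fell, Irf7 and Usp18, with a median of -0.50. Without Irf3KO replicate 2, 3 of the signalling genes fell, with a median of -0.31. Of 20 other interferon-induced effectors 6 fell, none rose, and the median was -1.38. Without Irf3KO replicate 2, 10 of the effectors fell, with a median of -1.07. Among the 4 with the smallest p, Ifi44 stood at 0.453 ± 0.231 RPKM in Irf3KO and 3.41 ± 0.25 RPKM in WT, and Rsad2, the antiviral enzyme viperin, at 1.91 ± 0.97 RPKM in Irf3KO and 13.0 ± 2.26 RPKM in WT (limma adjusted p = 0.00905 and 0.0125). The others of these 4 were Isg15 and Cxcl10.

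The genes whose 6 library values lay closest to the family's median profile were found by the root mean square difference of log2(RPKM + 1) minus the WT mean, over 11683 candidates. They were Rtp4 (0.171), Zbp1 (0.190), Pyhin1 (0.198), Gm13157 (0.217), Rab6b (0.238) and AC167240.1 (0.242), where the members themselves lay between 0.125 for Oasl1 and 0.474 for Oasl2. Rtp4, a receptor transport protein induced by interferon, stood at 7.43, 5.87 and 8.33 RPKM in Irf3KO libraries, against 25.39, 19.76 and 20.87 RPKM in WT libraries. Pyhin1, of the PYHIN family, averaged 1.90 ± 0.67 RPKM in Irf3KO and 8.31 ± 1.54 RPKM in WT. Gm13157 averaged 0.483 ± 0.169 RPKM in Irf3KO and 4.56 ± 0.40 RPKM in WT, and Rab6b, a small GTPase, 0.377 ± 0.226 RPKM in Irf3KO and 3.63 ± 1.29 RPKM in WT. AC167240.1 is 96 bases long and is listed at 0 in Irf3KO replicate 2. The profile used both groups, so these genes differ between them by construction.

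None of the markers of cells that could carry these transcripts passed the test. Only 0.503% of all tested genes passed it, so this count says little about the markers. Fewer cells of a type and less RNA per cell cannot be told apart in bulk tissue. All 15 macrophage marker genes were measured and none was at 0. They summed to 2243 to 5829 RPKM in Irf3KO libraries and 3447 to 6270 RPKM in WT libraries. Lyz2 was the largest part of these sums, at 833 to 3826 RPKM in Irf3KO and 1772 to 3289 RPKM in WT. Of the 15 markers, 14 had a log2 fold change below 0 and none was called (4 had an unadjusted limma p below 0.05). The median of the 15 markers was -0.42, and that of all tested genes was -0.09. Their medians relative to the WT mean were 0.07, -1.40 and -0.24 in Irf3KO replicates 1 to 3 and 0.49, -0.23 and -0.25 in WT replicates 1 to 3. The family stood at -1.80, -1.82 and -1.49 in Irf3KO and 0.22, -0.15 and -0.05 in WT. Without Irf3KO replicate 2 the macrophage median was -0.13 and the family's -1.65.

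On log2(RPKM + 1), single macrophage and monocyte markers had log2 fold changes as large as those of Oas1a and Oas1g. They are named after their values were seen. Plac8, which is high in inflammatory monocytes, stood at 10.74, 7.67 and 8.60 RPKM in Irf3KO libraries, against 28.25, 18.52 and 25.02 RPKM in WT libraries. Ly6c2, which encodes the Ly6C antigen of the same cells, stood at 1.87, 1.81 and 4.22 RPKM in Irf3KO libraries, against 11.58, 5.56 and 7.91 RPKM in WT libraries. Of the 15 listed markers, only these 2 and Mertk (3 in all) had every Irf3KO library below every WT library, and none of them passed. Over all tested genes 11.8% had every Irf3KO library below every WT library, so this count says little about the markers. The log2 fold change of Plac8 was -1.31 ± 0.22 (limma adjusted p = 0.0625) and -1.21 without Irf3KO replicate 2. That of Ly6c2 was -1.38 ± 0.32 (limma adjusted p = 0.203) and -1.22 without Irf3KO replicate 2. As a ratio of means, Plac8 was 2.66-fold and Ly6c2 3.17-fold lower in the knockout. Oas1a was 2.60-fold lower by that measure and Oas1g 5.31-fold, so the likeness to Oas1g rests on the 1 RPKM added before the logarithm. Ccr2, of the same list, overlapped between the groups, at 27.55, 9.86 and 15.79 RPKM in Irf3KO libraries and 30.31, 25.78 and 15.24 RPKM in WT libraries. Its log2 fold change was -0.46 ± 0.38 (limma adjusted p = 0.588) and -0.13 without Irf3KO replicate 2.

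Dendritic markers (5 of 8 measured) summed to 11.02 to 33.2 RPKM in Irf3KO and 14.4 to 24.0 RPKM in WT, and neutrophil markers (5 of 7) to 55.2 to 72.0 RPKM in Irf3KO and 34.5 to 101.5 RPKM in WT. Endothelial markers (8 of 8) summed to 201 to 320 RPKM in Irf3KO and 252 to 350 RPKM in WT. Smooth muscle markers (6 of 6) summed to 1458 to 2767 RPKM in Irf3KO and 1465 to 2063 RPKM in WT, and mesothelial markers (7 of 7) to 28.6 to 66.5 RPKM in Irf3KO and 48.9 to 168 RPKM in WT. All of these ranges overlapped, and so did those of cardiomyocyte markers, whose median was 0.57. The mesothelial list had the lowest median of the cell type lists, -0.80 (-0.71 without Irf3KO replicate 2), with 7 of 7 markers below 0, none called and 3 at an unadjusted limma p below 0.05. Fibroblast markers, given above, did not overlap between the groups, with a median of -0.58 and -0.32 without Irf3KO replicate 2, and lymphocyte markers (2 of 9) did not either, at 1.11 to 1.53 RPKM in Irf3KO and 2.47 to 2.81 RPKM in WT. The part of any of these cell types in the family's level was not tested.

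**Figure D5:**
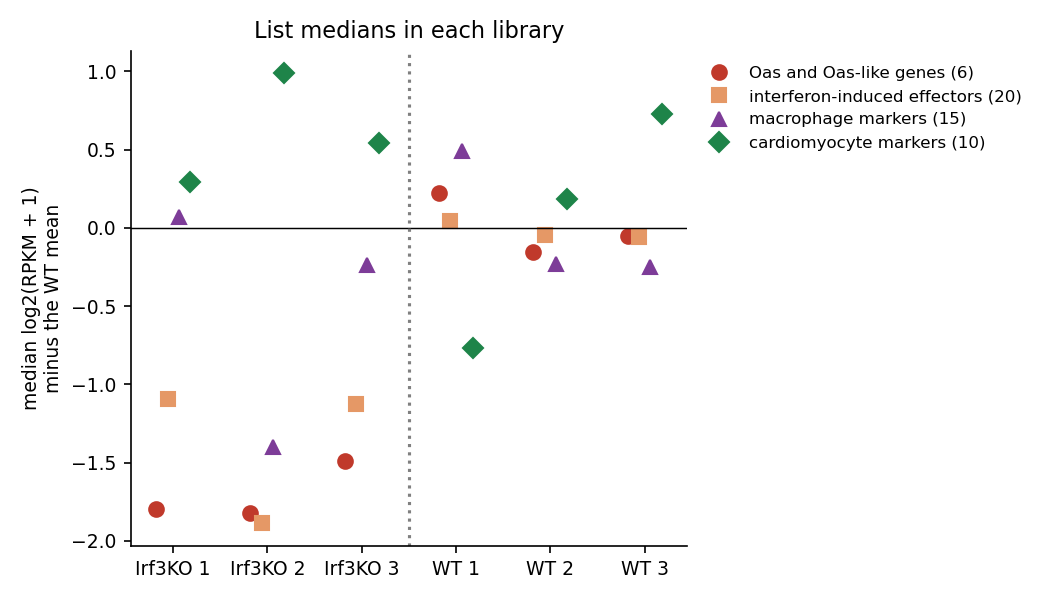
Median over each list of log2(RPKM + 1) minus the WT mean (y axis), in each Irf3KO and WT library, for the family, interferon-induced effectors (orange squares), macrophage markers and cardiomyocyte markers (green diamonds). The family (red circles) lies between -1.82 and -1.49 in all 3 Irf3KO libraries, while macrophage markers (purple triangles) are at -1.40 in Irf3KO replicate 2 and at 0.07 and -0.24 in the other 2.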

How the data were processed

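The authors deposited 1 table of RPKM, rounded to 2 decimals, beside each gene's length. The submitters' processing notes name edgeR 3.8.6, HTSeq 0.6.0, SAMtools 0.1.18.0, STAR 2.3.0 and Picard 1.100, and build NCBIM37 (mm9), without their settings. In 5 lines the last digit of the gene name stood in the first value cell and was moved back.

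Depth was read from low RPKM values times length, which step by 1 read; 100% of the 96 to 537 values used per library came within 0.2 reads of whole. Genes averaging 1 RPKM or more were tested on log2(RPKM + 1), using limma 3.58.1 under R 4.3.3 (mean-variance trend, two-sided, Benjamini-Hochberg over 12913 genes, threshold 0.05), after the script was tested on simulated data. The labels describe the animals no further, so a p-value reflects spread among these samples, which may be technical.

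The members and lists were chosen with earlier results of these data known. Named genes were the 6 members, Irf3, all genes of lists of up to 6, the 4 smallest p of longer lists, and the 6 genes of most similar profile among those averaging 2 RPKM or more. Some genes that this rule names are not reported here. Shares, ratios between members and chromosomal neighbours were chosen after the values were seen. Alternatives were another added value, other filters, scaling and prior, a replicate block and each library left out.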

Additional observations from a re-analysis of the deposited data

How the results depend on the processing

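All 6 genes kept a log2 fold change below 0 in every fit that tested them. Over all genes 65 were called, 46 of them lower, and 21 to 97 with 1 library left out; of the 6 members 5 were called, and 0 to 5 with 1 library left out. With only genes of at least 5 RPKM on average, 34 genes were called (22 lower), and 2 of the 3 members still tested, Oas2 and Oasl2. An added value of 0.1 RPKM, no filter, median-of-ratios scaling and a prior without a trend each left the 5 calls. Median-of-ratios scaling moved the median of all genes by 0.106 on the log2 scale, to 0.02 in place of -0.09, and the members then stood between -2.21 and -1.10. With the replicate number as a block, 250 genes were called (187 lower) and all 6 members, Oas1a at a limma adjusted p of 0.0169. The block left the members' log2 fold changes as they were and made the standard error of each larger (0.288 against 0.233 for Oas1a). These calls thus do not show that the block removed spread from the members. Same-numbered libraries had correlations of deviations of 0.13, -0.10 and -0.10. With 3 libraries per group these values cannot tell whether same-numbered libraries share more than a number. Over its alternatives the adjusted p of Oas1a was 0.0169 to 0.318. Rounding and 11 to 18 reads limit Oas1g in Irf3KO replicates 1 and 2.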
